A study of Mus musculus with 6 samples.

Results

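The genes described here form the hepatic growth hormone axis: the growth hormone receptor gene Ghr, its kinase gene Jak2, the transcription factor genes Stat5a and Stat5b, the feedback inhibitor genes Socs2 and Cish, the repressor gene Bcl6, and the genes of the circulating products, Igf1 and Igfals. They were chosen by symbol, with the row of highest mean level where a symbol had several. All 9 were found, each in 1 row, among 54600 identifiers; their coordinates are those of GENCODE M21 on mm10 (GRCm38). The row rule used no difference between labels, but the set was named with earlier results of these data known, so what follows describes the set and is no independent evidence about it. RNA came from mouse liver, with 3 libraries labelled WT and 3 labelled KO, a hepatocyte-specific knockout of HIF-2α, the oxygen-regulated transcription factor subunit encoded by Epas1. Both groups were fed a high-fat diet for 16 weeks, so no library shows the liver without that diet. Strain, age, sex, the driver of the deletion and whether each library is a separate animal are not given in the labels, so p-values measure only the spread between these libraries. Levels are in TPM, a measure of transcript share, which corrects for transcript length and gives each library the same total; read depth is unknown. Values of single libraries are given in the order of replicates 1, 2 and 3.

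Growth hormone from the pituitary binds its receptor on hepatocytes and activates the kinase JAK2, which phosphorylates STAT5; phosphorylated STAT5 enters the nucleus and binds DNA. In liver its targets include Igf1, the growth factor that carries much of the hormone's action, Igfals, whose product holds IGF1 in a long-lived complex in blood, and Socs2 and Cish, whose products damp the receptor. BCL6 is a repressor that can occupy the same DNA sites as STAT5. In male rodents the hormone is released in pulses, and the transcript levels of direct targets can vary with the time since a pulse.

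The promoters of Cish and Bcl6 are shown because these are 2 of the 3 genes of the axis that varied most between libraries and because both hold STAT-type motifs. RefSeq promoter windows (GRCm38.p6, 250 bases before to 50 after an annotated start) were matched for 8 of the 9 genes, all but Socs2, with 14 windows in all. The letters TTCNNNGAA, the general form of a STAT5 site, and the narrower TTCCTNGAA, which resembles a BCL6 site and lies wholly within the first form, were searched on both strands. The stretches run from 220 bases before to 30 after the start, and capitals mark TTCNNNGAA matches. They are Cish at chr9:107296439-107296688 on the plus strand, and Bcl6 from a downstream start at chr16:23981254-23981503 and from an upstream start at chr16:23988823-23989072, both on the minus strand.
Cish: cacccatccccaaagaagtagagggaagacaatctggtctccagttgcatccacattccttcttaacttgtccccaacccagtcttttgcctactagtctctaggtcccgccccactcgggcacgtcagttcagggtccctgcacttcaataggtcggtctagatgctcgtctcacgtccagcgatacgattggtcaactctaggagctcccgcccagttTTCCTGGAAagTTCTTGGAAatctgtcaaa
Bcl6, downstream start: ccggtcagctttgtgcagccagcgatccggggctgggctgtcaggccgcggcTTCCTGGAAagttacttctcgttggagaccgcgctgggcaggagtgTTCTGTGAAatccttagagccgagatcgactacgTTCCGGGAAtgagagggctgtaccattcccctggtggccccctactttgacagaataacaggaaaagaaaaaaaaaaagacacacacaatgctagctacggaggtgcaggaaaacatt
Bcl6, upstream start: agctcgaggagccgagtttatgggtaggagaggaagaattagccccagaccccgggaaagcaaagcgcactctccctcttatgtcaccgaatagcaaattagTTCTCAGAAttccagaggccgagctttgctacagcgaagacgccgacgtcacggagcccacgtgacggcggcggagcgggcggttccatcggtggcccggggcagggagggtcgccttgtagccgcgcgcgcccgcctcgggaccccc

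Of the 14 windows, 5 held a TTCNNNGAA match, from Cish, Bcl6 and Igfals, whereas 8.30% of all 32851 promoter windows did. The Cish window held 2 matches, TTCCTGGAA at base 1 and TTCTTGGAA at base 12 after the start, both inside an exon of Cish in GENCODE M21. At least 2 matches were present in 0.457% of all windows. The downstream Bcl6 window held 3 matches, TTCCTGGAA, TTCTGTGAA and TTCCGGGAA, beginning 168, 122 and 88 bases before that start, in an intron of the gene. Only 11 of all windows (0.0335%) held at least 3. The upstream Bcl6 window held 1 match, TTCTCAGAA, outside the annotated gene, and 2 of the 3 Igfals windows held 1 each. The narrower TTCCTNGAA was present once in the Cish window, once in the downstream Bcl6 window and once, as TTCCTAGAA, in an Igfals window, against 1.59% of all windows. No match was present in the windows of Ghr, Jak2, Stat5a, Stat5b or Igf1. A match describes letters in a window and does not show that a factor bound there.

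The libraries were all from liver and all carried Y-linked transcripts. Of 10 hepatocyte markers 9 were found, and their summed level was 50882 to 59643 TPM under the WT label and 59201 to 74659 under the KO label. Ddx3y, encoded on the Y chromosome, was between 18.5 and 22.2 TPM in every library and Xist was at most 0.005. Epas1 ran from 21.01 to 26.0 TPM under the WT label and from 26.6 to 35.1 TPM under the KO label, higher in the latter. Each direction given here is therefore between labels that this gene did not bear out. Its level covers the whole gene in all cells of the tissue, so it cannot check a deletion confined to hepatocytes. KO replicate 3 stood apart in several genes of the axis. The tissue holds many cell types, and in bulk RNA fewer cells of a type cannot be told apart from less RNA per cell.

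No gene of the axis differed between the labels beyond the spread of the libraries. Of the 9 genes, 0 passed a limma adjusted p of 0.05, and 1 of 11440 tested genes (0.00874%) did. At an unadjusted limma p below 0.05 the count was also 0 in each direction, against 3.15% of all tested genes (2.76% higher and 0.385% lower under the KO label). The values of the labels overlapped for all 9 genes, and did not overlap for 9.08% of tested genes (8.23% higher and 0.857% lower under the KO label). The log2 difference, labelled KO minus labelled WT on the log2(TPM + 1) scale, was above 0 for 7 of the 9 genes, against 74.5% of tested genes. Under a replicate block, or when 1 library was left out, some members did reach an unadjusted limma p below 0.05: 1 gene (Cish) with the block, and 2 (Cish and Socs2) without KO replicate 1, all higher under the KO label. The count was 1 without WT replicate 1 (Stat5b, higher) and 1 without WT replicate 3 (Stat5a, lower), and none of these passed the adjusted threshold. Of all 11440 tested genes, 707 reached that unadjusted limma p in either direction with the block and 485 without KO replicate 1. It was reached by 497 without WT replicate 1 and by 242 without WT replicate 3. Such single members are therefore not read as results about the axis. The median difference was +0.18 over the axis and +0.09 over all tested genes. Without KO replicate 3 the order of these medians turned, to +0.06 over the axis and +0.13 over all tested genes. What set these genes apart from each other was the spread between libraries. The receptor transcript, Ghr, was nearly constant, while Socs2, Cish and Bcl6 ranged over several-fold, Socs2 and Cish only under the KO label.

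**Figure D1:**
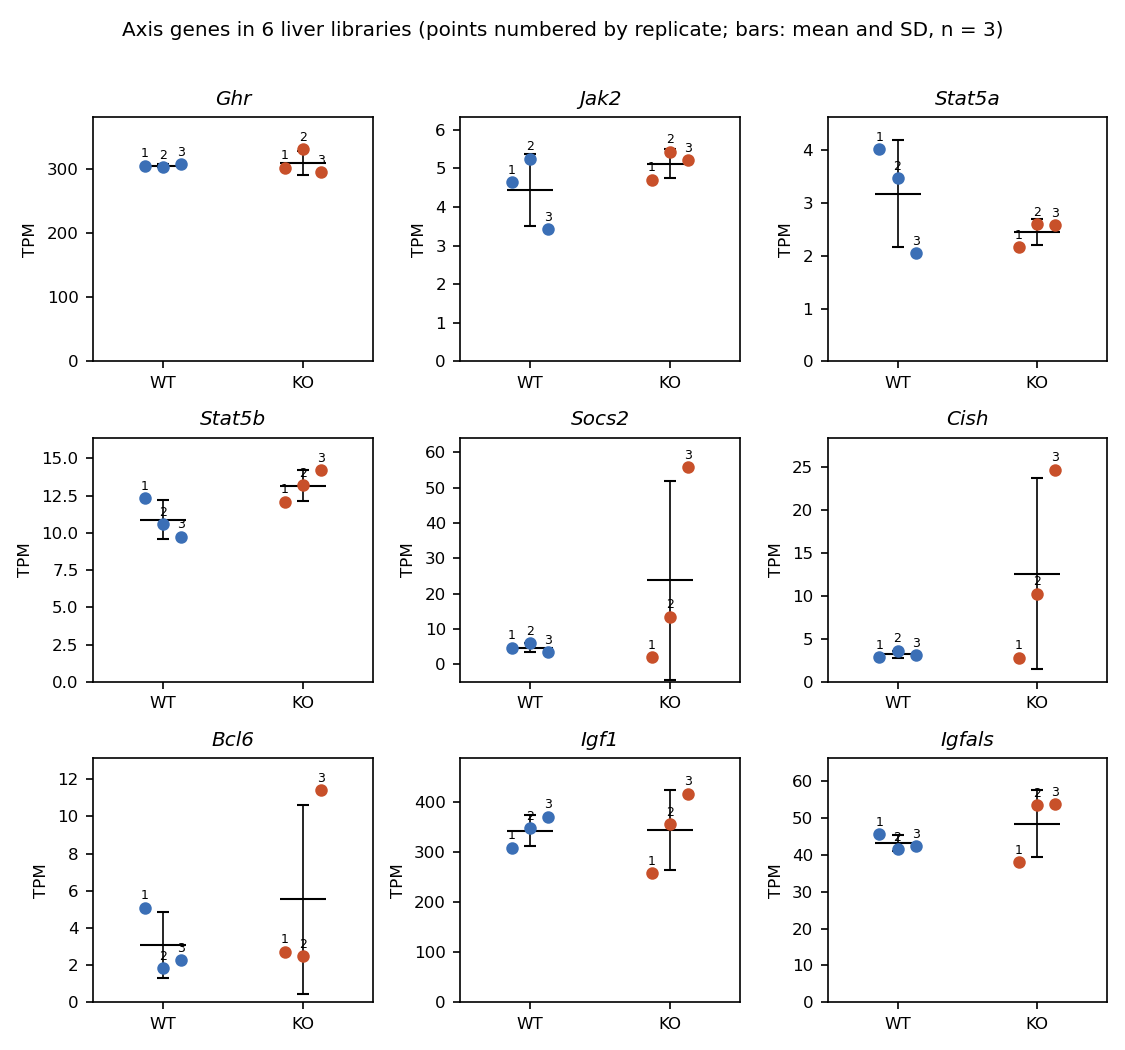
TPM (vertical axes, from 0 or below where the SD bar reaches below 0) of the 9 axis genes in the 3 libraries labelled WT (blue) and the 3 labelled KO (orange), numbered by replicate, with mean and SD bars. Ghr lies between 295 and 331 TPM throughout, while KO replicate 3 is the highest library for Socs2, Cish and Bcl6.

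Igf1 and Ghr were the most abundant transcripts of the axis, with means over the 6 libraries of 343.5 and 307 TPM. Igfals followed at 45.7 TPM, then Socs2 at 14.2, Stat5b at 12.03, Cish at 7.90, Jak2 at 4.78, Bcl6 at 4.30 and Stat5a at 2.81. The ranges of Igf1 and Ghr overlapped, so their order is not resolved, and Igfals lay below both in every library. From Socs2 downwards each gene's range overlapped that of the next. The means of Socs2, Cish and Bcl6 were raised by KO replicate 3, and by the median over the 6 libraries Socs2 (5.25 TPM) lay below Stat5b (12.2), and Cish (3.36) and Bcl6 (2.598) below Jak2 (4.96).

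Ghr (ENSMUSG00000055737, chr15:3317760-3583492, minus strand) encodes the receptor. It was at 305, 302 and 307 TPM under the WT label and 302, 331 and 295 TPM under the KO label. The highest library exceeded the lowest by only 1.12 times. Its pooled SD within labels was 0.06 on the log2(TPM + 1) scale, lower than in 423 of 436 tested genes whose mean level was within 2-fold of its own. The difference between labels was +0.02 (limma 95% interval -0.25 to +0.29, adjusted p = 0.994), and median-ratio scaling of the libraries turned it to -0.09.

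Jak2 (ENSMUSG00000024789, chr19:29251828-29313080, plus strand), the kinase bound to the receptor, was at 4.64, 5.25 and 3.43 TPM under the WT label and 4.71, 5.44 and 5.22 TPM under the KO label. The lowest value was that of WT replicate 3, and the other 5 lay between 4.64 and 5.44 TPM. The difference was +0.18 with a standard error of 0.16 (limma adjusted p = 0.993). It was +0.04 without WT replicate 3 and +0.29 without WT replicate 2, and +0.09 after median-ratio scaling.

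Stat5b (ENSMUSG00000020919, chr11:100780731-100850724, minus strand), the more abundant of the STAT5 genes in these livers, was at 12.3, 10.6 and 9.745 TPM under the WT label and 12.1, 13.2 and 14.2 TPM under the KO label. Only WT replicate 1 and KO replicate 1 crossed. The difference was +0.26 with a standard error of 0.13 (limma 95% interval -0.06 to +0.57, adjusted p = 0.993), and +0.15 after median-ratio scaling. Stat5a (ENSMUSG00000004043, chr11:100859351-100885169, plus strand), its close paralog, lay in the other direction, at 4.02, 3.47 and 2.05 TPM under the WT label and 2.165, 2.60 and 2.58 TPM under the KO label. Its difference was -0.25 with a standard error of 0.21 (limma adjusted p = 0.993), and ran from -0.10 without WT replicate 1 to -0.46 without WT replicate 3. WT replicate 3 was the lowest library for both genes.

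Within a library, the ratio of Stat5b to Stat5a does not depend on how libraries are scaled. It was 3.07, 3.06 and 4.76 under the WT label and 5.58, 5.08 and 5.50 under the KO label, so all 3 labelled KO lay above all 3 labelled WT. The means were 3.63 ± 0.978 and 5.39 ± 0.270 (SD, n = 3 each). No test was run on this ratio. For single genes 9.08% of those tested had labels that did not overlap, and no such share was computed for ratios. The labels overlapped in the other ratios formed, Igf1 to Igfals, Socs2 to Ghr and Cish to Socs2. The sum of the genes overlapped, at 11.8 to 16.3 TPM and 14.3 to 16.8 TPM. The paralogs share sequence: 16.4% of the 50-base words of the longest coding Stat5a transcript were also in transcripts of Stat5b or Stat3, and 11.8% of those of Stat5b were in Stat5a. How reads in such stretches were assigned is unknown here, and the ratio is uncertain to that extent.

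**Figure D2:**
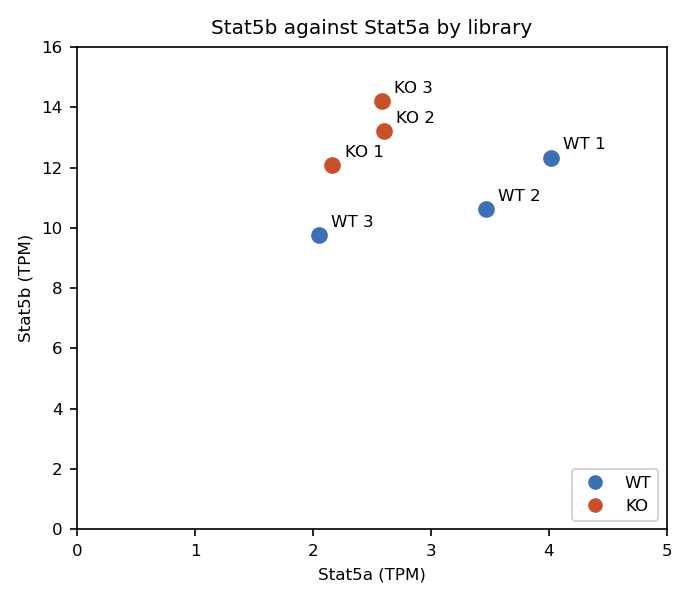
Stat5b against Stat5a, both in TPM, with 1 point per library (blue, labelled WT; orange, labelled KO). The libraries labelled KO lie at 5.08 to 5.58 Stat5b per Stat5a, above the 3.06 to 4.76 of those labelled WT.

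Socs2 (ENSMUSG00000020027, chr10:95385362-95417180, minus strand), the feedback inhibitor and a direct STAT5 target, was at 4.66, 5.84 and 3.38 TPM under the WT label and 1.99, 13.4 and 55.7 TPM under the KO label. The libraries labelled KO therefore held both the lowest and the highest value, 28.0-fold apart, while those labelled WT lay within 1.73-fold. KO replicate 3 was 9.54 times the highest library labelled WT, and KO replicate 2 was 2.30 times that library. The difference between labels was +1.28 with a standard error of 0.92 (limma 95% interval -0.87 to +3.44, adjusted p = 0.993). Without KO replicate 3 it was +0.25, and without KO replicate 1 it was +2.37 (limma adjusted p = 0.923 and 0.927). Of the transcript's 50-base words, 18.4% were shared with the pseudogenes Gm9847 and Gm8000. Gm9847 was listed at 0 in all libraries and Gm8000 was at most 0.175 TPM.

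Cish (ENSMUSG00000032578, chr9:107296026-107302784, plus strand), the second feedback inhibitor, followed the same order at the top. It was at 2.89, 3.62 and 3.11 TPM under the WT label and 2.83, 10.3 and 24.7 TPM under the KO label. KO replicates 3 and 2 were 6.81 and 2.84 times the highest library labelled WT, and KO replicate 1 was again the lowest of all. The difference was +1.30 with a standard error of 0.60 (limma 95% interval -0.10 to +2.70, adjusted p = 0.993). Blocking on replicate number gave an adjusted limma p of 0.724. Without KO replicate 3 the difference was +0.65, and without KO replicate 1 it was +2.02 (limma adjusted p = 0.873 and 0.561). Predicted genes on the opposite strand, Gm17040 and Gm17041, overlap 11.5% of the exonic bases of Cish. Gm17040 was listed at 0 in 3 libraries and was at 0.81 TPM in WT replicate 2, 1.09 in KO replicate 2 and 1.68 in KO replicate 3; Gm17041 was listed at 0 throughout.

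The Cish promoter shown above holds its 2 STAT-type motifs within the first bases of the RefSeq transcript. Socs2 had no window, and a link between motifs and pattern was not tested. Cish and Socs2 were close in pattern. After each gene was standardised over the 6 libraries, the root-mean-square distance between them was 0.232, where 0 means the same pattern. Of 7088 genes with a mean of at least 5 TPM, 10 were closer to Socs2 than Cish was. Cish reached that mean only through its values in KO replicates 2 and 3, where Socs2 was also high. The count is therefore no support for a likeness. With 6 libraries and so many genes, small distances also arise between unrelated genes. Relative to each other the feedback genes were not in constant proportion: Cish per Socs2 was 1.42 in KO replicate 1, 0.764 in KO replicate 2 and 0.442 in KO replicate 3, and 0.619 to 0.921 in the libraries labelled WT.

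Bcl6 (ENSMUSG00000022508, chr16:23965052-23988852, minus strand), the repressor, was at 5.09, 1.83 and 2.285 TPM under the WT label and 2.72, 2.475 and 11.4 TPM under the KO label. KO replicate 3 was the highest again, at 2.24 times the next library, which was WT replicate 1. KO replicate 2, which was high in Socs2 and Cish, was not high in Bcl6. The difference was +0.50 with a standard error of 0.52 (limma adjusted p = 0.993), and without KO replicate 3 it turned to -0.10. Bcl6 is also expressed by lymphocytes. The summed level of 12 T, B and NK cell markers was 3.35 TPM in KO replicate 3 and 4.25 to 7.14 in the others; their part in the Bcl6 level was not tested.

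**Figure D3:**
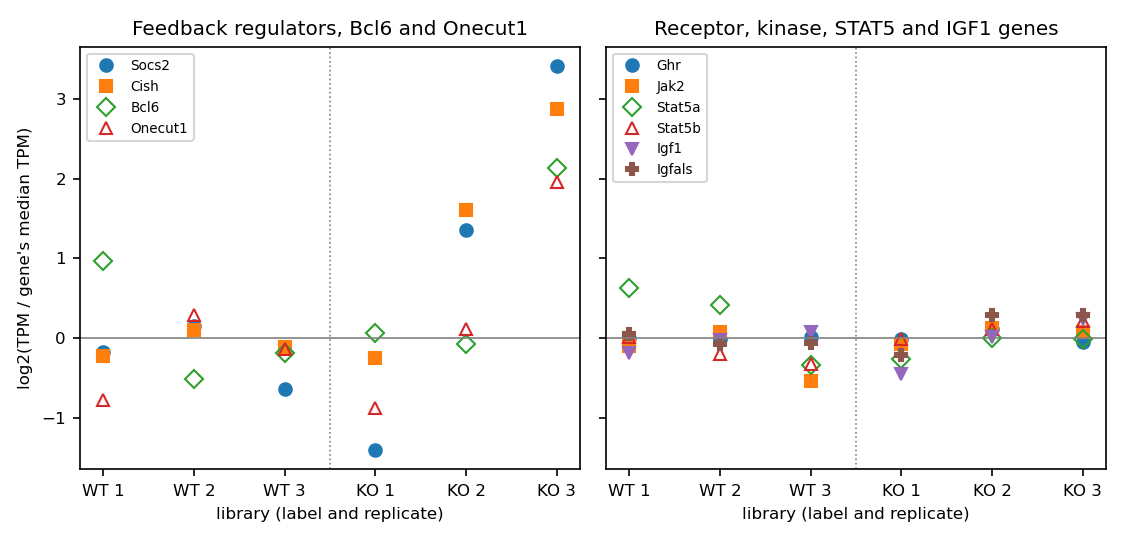
Level of each gene in each library relative to that gene's median over 6 libraries, as a log2 ratio of TPM; the dotted line separates the labels. In the left panel (Socs2, Cish, Bcl6 and Onecut1) KO replicate 3 is 3.41 above the median for Socs2 and 2.87 for Cish, while the 6 genes in the right panel stay within 0.63 of theirs.

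Pooled spread within the labels separated the axis into groups that the labels did not. The pooled SD within labels, on the log2(TPM + 1) scale, was 1.52 for Socs2, 0.98 for Cish and 0.84 for Bcl6. For Socs2 and Cish this spread lay mainly under the KO label, at 1.99 to 55.7 and 2.83 to 24.7 TPM. Under the WT label these genes lay at 3.38 to 5.84 and 2.89 to 3.62 TPM. Bcl6 varied under both labels, at 1.83 to 5.09 TPM under WT and 2.475 to 11.4 under KO. Among tested genes of a mean level within 2-fold, 16 of 3636 had a larger SD than Socs2, 72 of 4277 than Cish and 93 of 4196 than Bcl6. KO replicate 3 raised the means of Socs2, Cish and Bcl6, so the value behind much of their SD also shifted the genes compared. For Stat5a, Igf1, Igfals, Jak2 and Stat5b the SD was 0.28, 0.26, 0.21, 0.19 and 0.14, between the percentiles 23.6 and 70.5 of genes of like level. The SD was larger among the libraries labelled KO for 6 of the 9 genes, against 53.4% of tested genes. KO replicate 3 was the highest library for 6 of the 9 genes, against 18.2% of tested genes.

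**Figure D4:**
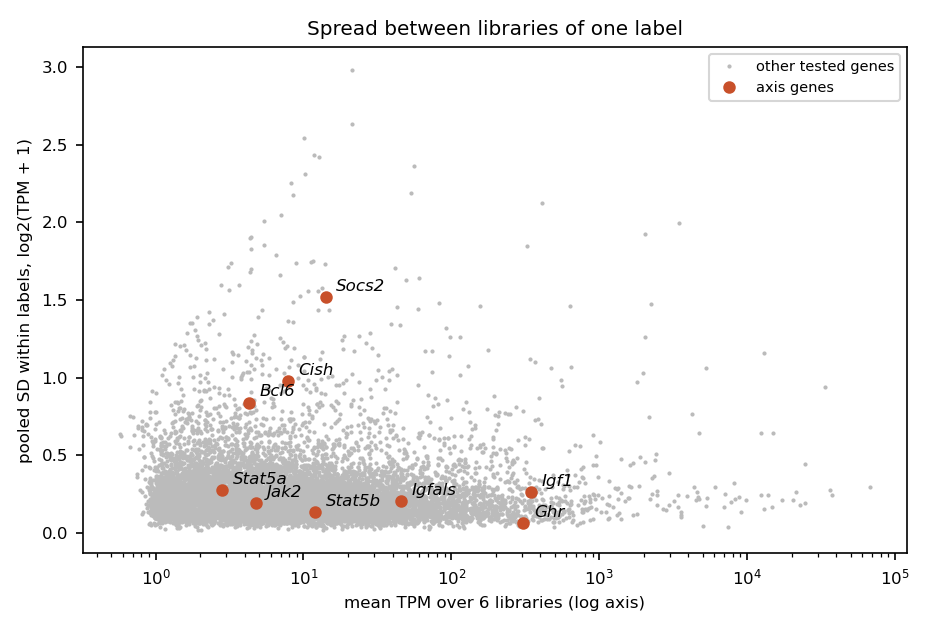
Pooled SD between libraries of one label, on the log2(TPM + 1) scale, against mean TPM on a log axis, for 11440 tested genes (grey) and the 9 axis genes (orange). Socs2, Cish and Bcl6 lie at 0.84 to 1.52, above most genes of their mean level, which KO replicate 3 raised, and Ghr at 0.06 lies near the bottom. For Socs2 and Cish the spread lies mainly among the libraries labelled KO.

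Igf1 (ENSMUSG00000020053, chr10:87858265-87937042, plus strand), the main endocrine product of the axis, did not show the contrast seen in Socs2 and Cish. It was at 309.5, 349 and 371 TPM under the WT label and 258, 356 and 417 TPM under the KO label. KO replicate 1 was the lowest and KO replicate 3 the highest, as for Socs2, but over a range of 1.61-fold. The difference was -0.02 with a standard error of 0.19 (limma 95% interval -0.47 to +0.43, adjusted p = 0.994). Without KO replicate 1 it turned to +0.17, and without KO replicate 3 it was -0.17. Macrophages can also express Igf1, and the summed level of 13 Kupffer cell and macrophage markers was 208 to 295 TPM under the WT label and 264 to 280 under the KO label; their part in the Igf1 level was not tested.

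Igfals (ENSMUSG00000046070, chr17:24865997-24882010, plus strand), which encodes the acid-labile subunit that binds IGF1 in the circulation, was at 45.5, 41.5 and 42.2 TPM under the WT label and 37.9, 53.455 and 53.7 TPM under the KO label. KO replicates 2 and 3 were above every library labelled WT and KO replicate 1 was below. The difference was +0.15 with a standard error of 0.16 (limma adjusted p = 0.993). It was +0.06 without KO replicate 3, +0.07 without KO replicate 2, +0.31 without KO replicate 1 and +0.04 after median-ratio scaling. Igf1 per Igfals was 6.81 to 8.79 under the WT label and 6.67 to 7.76 under the KO label, which overlap. Socs2 per Ghr, a ratio of target transcript to receptor transcript, ran from 0.00659 in KO replicate 1 to 0.189 in KO replicate 3, with 0.011 to 0.0193 in the libraries labelled WT.

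**Figure D5:**
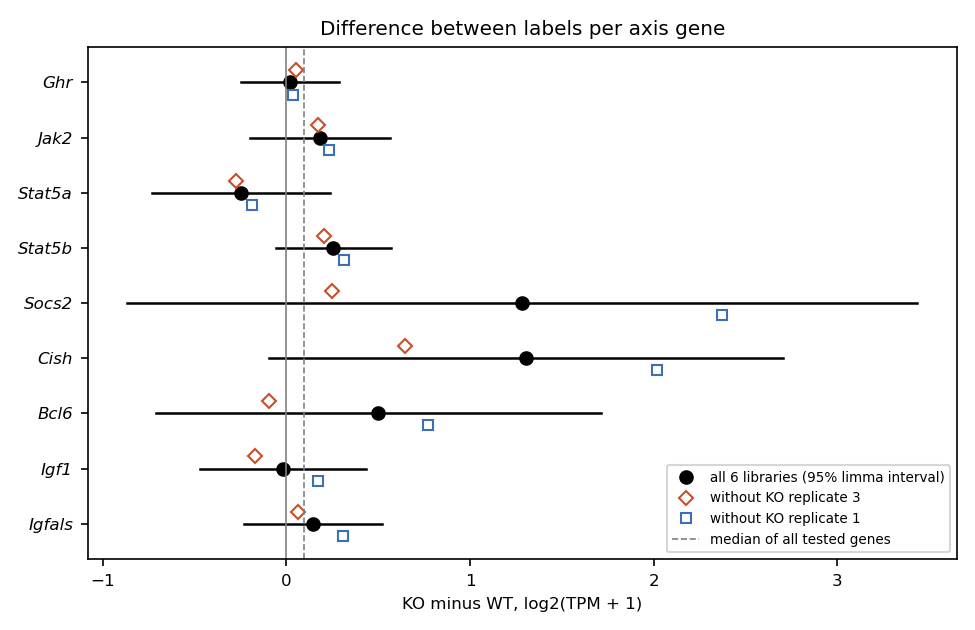
Difference between labels for each axis gene, on the log2(TPM + 1) scale, as labelled KO minus labelled WT with the limma 95% interval (black), and the estimates without KO replicate 3 (orange diamonds) and without KO replicate 1 (blue squares). Every interval includes 0, and leaving out KO replicate 3 moves Socs2 from +1.28 to +0.25.

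Other genes of receptor signalling gave no call either. Of 29 listed, 24 were tested; 0 were called, 1 was higher and 0 lower at an unadjusted limma p below 0.05, and the median difference was +0.13 (+0.02 after median-ratio scaling). That 1 gene was Socs3, a feedback inhibitor better known from cytokine signalling, at 1.43, 1.59 and 0.645 TPM under the WT label and 1.79, 2.12 and 3.12 TPM under the KO label. Its difference was +0.60 with a standard error of 0.24 (limma adjusted p = 0.993), and +0.44 without KO replicate 3. Socs3 and Sh2b1, an adaptor that binds JAK2, were the 2 listed genes whose labels did not overlap, with the libraries labelled KO higher, against 8.23% of tested genes. Sh2b1 was at 8.54 to 10.4 TPM and 10.9 to 11.6 TPM. Sirpa, a receptor-type JAK2 substrate, was at 4.84 to 7.77 and 6.22 to 9.17 TPM, and Socs4 at 3.98 to 4.601 and 4.23 to 6.12. The prolactin receptor gene Prlr was at 54.45, 44.2 and 24.3 TPM under the WT label and 36.0 to 38.5 TPM under the KO label, and Jak1 at 25.3 to 30.4 and 28.9 to 30.9. Gh itself was listed at 0 in all 6 libraries.

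Onecut1, which encodes the hepatocyte factor HNF6 and is known as a growth hormone-responsive gene, lies outside the rule for named genes and was picked with its values in view. It was at 4.59, 9.60 and 7.18 TPM under the WT label and 4.27, 8.54 and 30.5 TPM under the KO label. KO replicate 3 was 3.18 times the next highest library and KO replicate 1 was the lowest. Among 16 tested hepatocyte transcription factors 0 were called, 0 had an unadjusted limma p below 0.05 and the median difference was +0.05, which median-ratio scaling turned to -0.06. Foxa2, a pioneer factor of hepatocytes, was at 7.915, 15.6 and 11.7 TPM under the WT label and 10.9, 20.8 and 28.9 TPM under the KO label. Foxa1 and Foxa3, its relatives, were also highest in KO replicate 3, at 13.2 and 41.8 TPM against 5.875 to 7.875 and 20.4 to 24.4 in the other libraries. Only 4 of the 16 tested factors were highest in KO replicate 3, against 18.2% of all tested genes. Foxo1, an insulin-restrained factor, was at 5.44 to 7.76 and 6.95 to 8.40 TPM, and Hnf4a and Cebpa, general hepatocyte factors, at 126 to 169 and 137 to 194 TPM over all libraries.

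The rest of the IGF system was described by 18 genes, of which 11 were tested. None was called, 0 had an unadjusted limma p below 0.05, and the median difference was +0.21, with 9 of the 11 above 0; it was +0.10 after median-ratio scaling. Igfbp2, an IGF-binding protein of liver, was at 108, 289 and 225 TPM under the WT label and 234, 322 and 293 TPM under the KO label. WT replicate 1 was the low library and the others overlapped. Igfbp3, which forms the circulating complex with IGF1 and the acid-labile subunit, was at 6.17 to 8.58 and 8.13 to 8.94 TPM. Igfbp4, the most abundant of the list, was at 714 to 933 and 819.9 to 1066 TPM. The protease genes Klkb1 and Htra1 were at 62.7 to 87.9 and 80.6 to 93.1 TPM and at 0.677 to 1.085 and 0.838 to 1.54 TPM. The receptor gene Igf1r was low in every library, between 0.145 and 0.425 TPM. Igfbp1 and Igf1r fall outside the rule for named genes and were picked with their values in view. Igfbp1, which responds to fasting and insulin, was at 13.7, 69.3 and 24.0 TPM under the WT label and 29.2, 21.5 and 79.2 TPM under the KO label.

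Sex-biased liver genes, many of which depend on the pattern of growth hormone release, are described beside the axis for that reason. The mean of 23 tested male-biased genes, on the log2(TPM + 1) scale, was 7.58, 6.83 and 8.29 under the WT label and 7.16, 7.29 and 8.57 under the KO label. Under the KO label, KO replicate 1 was lowest and KO replicate 3 highest, as for Socs2 and Cish. Unlike in those genes, KO replicates 1 and 2 lay close together here. Of the 23 male-biased genes, 17 were highest in KO replicate 3, against 18.2% of all tested genes. Under the WT label the order was not that of Socs2: WT replicate 3 had the highest mean but the lowest Socs2. For 12 tested female-biased genes the mean was 2.35, 3.998 and 2.02 under the WT label and 3.24, 3.56 and 1.97 under the KO label. None of either list was called, and 0 had an unadjusted limma p below 0.05.

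Genes most like each member in pattern were found by the same root-mean-square distance over the 6 libraries, among genes with a mean of at least 5 TPM. For Socs2 they were Prrc2c, Zdhhc12 and Ang (distances 0.150, 0.151 and 0.160). Ang, the ribonuclease angiogenin, was at 237, 229 and 216 TPM under the WT label and 200.1, 257 and 347 TPM under the KO label, a narrower range than that of Socs2. For Cish they were Pdia5, Fip1l1 and Foxq1 (0.0742, 0.149 and 0.151). Foxq1, a forkhead transcription factor, was at 1.53, 2.498 and 2.29 TPM under the WT label and 2.34, 8.11 and 15.5 TPM under the KO label. For Bcl6 they were Sntg2, Ppp1r15a and Stat3 (0.142, 0.184 and 0.196). Stat3, the transcription factor of interleukin-6 signalling, was at 27.8, 21.4 and 20.9 TPM under the WT label and 24.9, 22.8 and 36.3 TPM under the KO label. The nearest gene was Birc3 for Ghr (0.155), Lmo4 for Jak2 (0.0801), Cyp26a1 for Stat5a (0.262), Ankrd13c for Stat5b (0.0959), Zbtb43 for Igf1 (0.255) and Acin1 for Igfals (0.0978). Cyp26a1, which degrades retinoic acid, was at 18.1, 16.1 and 1.79 TPM under the WT label and 1.58, 5.18 and 2.56 TPM under the KO label. The filter on the mean admitted low genes through their highest libraries, as with Foxq1, which passed only through KO replicates 2 and 3. Such a likeness is partly set by the filter. These likenesses describe 6 libraries and carry no test.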

How the data were processed

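Liver RNA from 6 libraries, 3 per label, was described from one table of TPM, which the authors deposited for 54600 identifiers and in which each column sums to 1000000. The submitters' processing notes name fastp, HISAT2, featureCounts, DESeq2, limma and mm10, with no version, role or order; the counting mode is unknown here. TPM keeps no read depth, so no count model was run and the counting precision of single values is unknown. The number of libraries limits the precision of label means and differences. Identifiers were named from GENCODE M21 (51492 of 54323 Ensembl identifiers matched), which also gave coordinates on the same build, and 0 columns were left unmapped.

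The 2-sided limma test (version 3.58.1, run under R 4.3.3) took log2(TPM + 1) of the 11440 genes that reached 1 TPM in 3 or more libraries, with a variance trend and Benjamini-Hochberg adjustment over all of them at 0.05. Differences on this scale understate changes of low genes. The test was also run on simulated data with independent noise for each gene and library. Those data lack shifts shared between genes, so that run does not vouch for the test here. Each library was used as 1 replicate. Deviations of same-numbered libraries from their label's mean were correlated at 0.157, 0.408 and 0.381, each above 0.1. Those of unlike-numbered libraries ran from -0.369 to +0.026. Deviations sum to 0 within a label, so these values depend on each other and do not establish a pairing. The numbers were treated as a possible pairing, and the labels themselves state none. The fit without the block was the main one.

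The 9 genes, the other lists and the tests were chosen with earlier results of these data known. All 9 genes were named; of each other list, up to 4 tested genes with the smallest p and 2 with the highest mean could be named, and 3 genes per member by likeness of pattern. Lists of sex-chromosome, fasting, endothelial, stellate, cholangiocyte and neighbouring tissue genes were also summarised. The alternatives changed the pseudocount (0.1 or 5), the filter (none, or 5 TPM) or the trend (none or robust). Others changed the scaling (median-ratio, quantile, or TPM after removal of mitochondrial genes and the top 20). The replicate block was added without rescaling or with median-ratio scaling, and each library was left out in turn. Motifs and shared 50-base words were searched in Python 3.11.15.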

Additional observations from a re-analysis of the deposited data

How the results depend on the processing

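Under 17 alternatives no gene of the axis was called; adjusted limma p ran from 0.561 to 0.99993. Of 150 values, 142 kept their direction and 8 did not. Ghr was at -0.0928 with median-ratio scaling, with or without a replicate block, at -0.068 with quantile normalization and at -0.0483 without the most abundant genes, and leaving out 1 library gave -0.0303 to +0.0516. Leaving out 1 library gave -0.17 to +0.17 for Igf1 and -0.10 to +0.83 for Bcl6, with the negative Bcl6 value without KO replicate 3. The cause was not tested. The filter of 5 TPM tested 6 of the 9 genes. The axis median ran from +0.06 to +0.31, and 17 of 202 medians of other lists moved by more than their spread. Median-ratio scaling brought the median of all tested genes from +0.09 to -0.002.

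The count of genes called lower was 0, in place of 1, with a pseudocount of 5, no filter, the 5 TPM filter, quantile normalization, the replicate block and the block with median-ratio scaling. Leaving out 1 library gave 0 to 1 lower and 0 to 2 higher, the 2 without WT replicate 2. The replicate block gave 707 genes at an unadjusted p below 0.05, against 360 without it, and left every axis gene uncalled. Read depth is unknown, so no limit from counting can be given.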

Other observations

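Genes associated with fasting were described as a further group, since food intake is known to alter hepatic growth hormone signalling. All 14 were tested, 0 were called and 0 had an unadjusted limma p below 0.05, with a median difference of +0.11. That median turned to -0.02 without WT replicate 1, -0.04 without WT replicate 3 and -0.04 without KO replicate 1, was +0.27 without WT replicate 2, and was +0.01 after median-ratio scaling. Tat, a tyrosine aminotransferase gene induced by glucocorticoids, was at 864, 1211 and 1083 TPM under the WT label and 1171, 789 and 363 TPM under the KO label, with KO replicate 3 the lowest. Pck1, the gluconeogenic carboxykinase gene, was at 812 to 964 and 863 to 1078 TPM. Irs2, an insulin receptor substrate gene, was highest in KO replicate 3, at 4.89 TPM against 1.53 to 2.875 in the other libraries, and Pdk4, a fasting-induced kinase gene, was highest in WT replicate 2, at 3.64 TPM against 1.31 to 1.68.

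Other cell types gave no call. Of tested markers, 0 of 10 endothelial, 0 of 10 stellate and 0 of 3 cholangiocyte genes passed, with medians of +0.10, +0.18 and +0.03, which were -0.003, +0.10 and -0.03 after median-ratio scaling. At an unadjusted limma p below 0.05 the counts were 2, 4 and 1, all higher under the KO label, where 2.76% of all tested genes were. Summed stellate markers were 131 to 155 TPM under the WT label and 159 to 179 TPM under the KO label; 8.23% of single tested genes were higher with no overlap of the labels. Among tested hepatocyte (9), Kupffer cell (10), lymphocyte (1), sex chromosome (4) and neighbouring tissue (2) genes, 0 were called and 0 had an unadjusted limma p below 0.05. Of 10 markers of pancreas, muscle and fat, 6 were listed at 0 in every library, but the set was not absent. Its summed level was 69.7 to 103 TPM under the WT label and 69.8 to 94.9 TPM under the KO label. Of the 2 tested, Fabp4 and Cela1, 1 was higher under the KO label with no overlap of the labels.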
